A study of Lachancea kluyveri with 16 samples.

Results

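The genes examined lie on the left arm of chromosome C of the budding yeast Lachancea kluyveri. They were taken by position alone, as every arrayed gene of chromosome C with a locus number under 7000, leaving out 3 genes (SAKL0C00176g, SAKL0C02112g and SAKL0C04180g). This gave 285 of the 5316 genes on the array, and they were set beside the 4732 genes of the other 7 chromosomes. Another 296 genes of chromosome C lie beyond locus number 7000. That number is a cut made for the selection, and where the arm itself ends was not determined. Results for the left arm below are those of the 285 genes. The arrays fall into 4 groups of 4, sef1Δ in YPGly, sef1Δ in YPD, WT in YPGly and WT in YPD. The strain sef1Δ (SkSef1KA1, MATa ura3 sef1Δ::KanMX6) is a single deletion strain made from the WT strain JYL1897 (MATa ura3), so both strains carry MATa and ura3. Cells precultured overnight in YPD at 28 °C were diluted to 0.2 OD600 per ml into either medium and grown for 5.5 h at 30 °C. YPD is a rich medium with 2% glucose, and in YPGly glycerol takes the place of glucose, so that growth depends on respiration. The question behind the strain comparison was which genes depend on Sef1, a zinc cluster transcription factor, and YPGly against YPD shows how each strain responds to the carbon source.

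The left arm of chromosome C is known for a higher GC content than the rest of the Lachancea kluyveri genome. High GC content affects how strongly a DNA probe pairs with its target, and probe designers grade probes by base composition for that reason. No sequence was used here, so the GC content itself was not checked. The files carry 1 related mark, a base composition grade in the names of some probes. Of the 45 genes with a probe so marked, 43 lie on chromosome C and 26 are among the 285 genes. SAKL0C04180g, which was left out of the selection, is marked too. The other marked genes of chromosome C lie beyond the cut made for the selection. The paper's methods list a probe of the first base composition grade for nearly all genes. For 45 genes they list a second-grade probe as well, the same number as the marked genes. Whether the mark stands for that second grade was not checked gene by gene. Gene symbols below are those of the Saccharomyces cerevisiae orthologs, and the roles given are those known from that species unless another is named. A symbol was held for 182 of the 285 genes.

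Array brightness differed between samples. Over the 16 arrays the 75th percentile lay between 718 and 2410 signal units, replicate arrays correlated at 0.915 to 0.993 across probes, and no gene spot was saturated. Replicates 1 and 2 of every group shared a slide, as did replicates 3 and 4, and each group kept its own column on both slides, so group and column cannot be told apart. The deletion was seen in the level of SEF1, which was -8.86 ± 0.64 in sef1Δ and -1.93 ± 0.50 in WT in YPD, and -8.15 ± 1.60 in sef1Δ and -1.56 ± 0.12 in WT in YPGly (SD, n = 4, exact two-sided permutation p = 0.0286 in each medium, the smallest that 4 against 4 arrays allow). These values, like all levels below, are log2 signals relative to the array's 75th percentile, and changes are differences of such values.

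Genes of the left arm gave brighter spots than genes of any other chromosome. Their median level over the 16 arrays was -0.27, while the medians of the other 7 chromosomes lay between -1.30 on chromosome D and -1.03 on chromosome F, and the rest of chromosome C stood at -0.88. Of the 285 genes, 195 (68.4%) were above the median of the genes on other chromosomes. The spread was wide at both ends, with 38 left-arm genes among the brightest 10% of all genes and 24 among the dimmest 10%. The second probe of each gene showed the same offset, with medians of -0.65 on the left arm and -1.67 to -1.41 on the other chromosomes. The 2 probes of a gene lay closer together on the left arm, at a median difference of 0.11, than on the other chromosomes, where it was 0.23 to 0.27. On the rest of chromosome C it was 0.16, and the 4 blocks of 1000 locus numbers that follow the arm had 0.10, 0.10, 0.07 and 0.14. Signals of different probes depend on the probe as well as on the transcript, so these are differences in spot brightness. The share of genes well above background on all 16 arrays was 93.0% on the left arm and 91.9% on the other chromosomes.

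**Figure D1:**
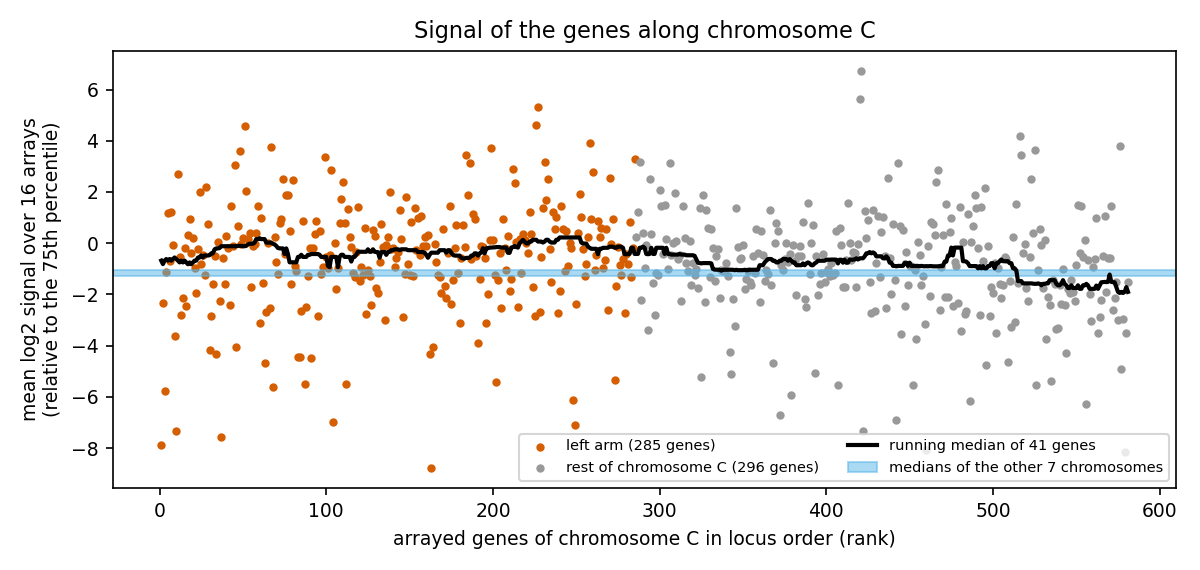
Mean log2 signal over 16 arrays (y axis) of each arrayed gene of chromosome C in locus order (x axis, rank), with the 285 left-arm genes in orange, the other 296 in grey, a running median in black and the range of medians of the other 7 chromosomes as a blue band. The running median stands above the band along the left arm, where the median gene is at -0.27, and falls below it at the far end of the chromosome.

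The brighter stretch was not even along these genes and did not stop at the chosen limit of locus number 7000. In blocks of 1000 locus numbers, the median level was -0.75, 0.18, -0.94, -0.26, -0.49, 0.15 and -0.22 from the first block of the left arm to the last. Beyond the limit the next 4 blocks stood at -0.42, -1.05, -0.83 and -0.51, and the 3 blocks from 11000 to 13999 at -0.33, -1.02 and -1.78. On single arrays, genes between locus numbers 7000 and 11000 exceeded those of other chromosomes by group means of 0.39 to 0.59, and genes from 11000 on by -0.09 to 0.01. At the limit itself, FMP46, SAKL0C06886g, ALB1, RPE1 and PDR15 were the last 5 genes inside, with levels of -0.79, 0.84, -1.30, -0.18 and 3.30, and SAKL0C07018g, SAKL0C07040g, PET10, SAKL0C07084g and PHO86 the first 5 outside, at 0.24, 1.20, 3.17, -2.21 and 0.39.

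On every array the left arm was brighter than the other chromosomes. The difference between their medians was 0.81, 0.99, 0.63 and 0.78 in sef1Δ in YPGly, 0.67, 1.00, 0.72 and 0.75 in WT in YPGly, 0.99, 0.75, 0.53 and 0.80 in sef1Δ in YPD and 1.06, 0.59, 1.08 and 1.06 in WT in YPD, for replicates 1 to 4. On a linear scale this is 1.44-fold to 2.11-fold. The groups overlapped, and 3 of the 4 arrays of WT in YPD were above all others, while replicate 2 of that group was the second lowest of all 16. Over the same arrays, no other single chromosome departed from the remaining ones by more than 0.27 in either direction.

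The size of the difference moved with the brightness of the array. The 7 arrays with a 75th percentile of at least 1500 had differences of 0.53 to 0.80, and the 9 dimmer arrays 0.75 to 1.08. Across the 16 arrays the difference correlated with brightness at a Spearman rho of -0.74 and, with brightness on the log2 scale, a Pearson r of -0.79, given as a description because the arrays share groups and slides. Of the 4 arrays of WT in YPD, 3 were dim (817 to 1153) and replicate 2 was bright (1925). The part of array brightness in the shifts of the left arm between groups was not tested.

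**Figure D2:**
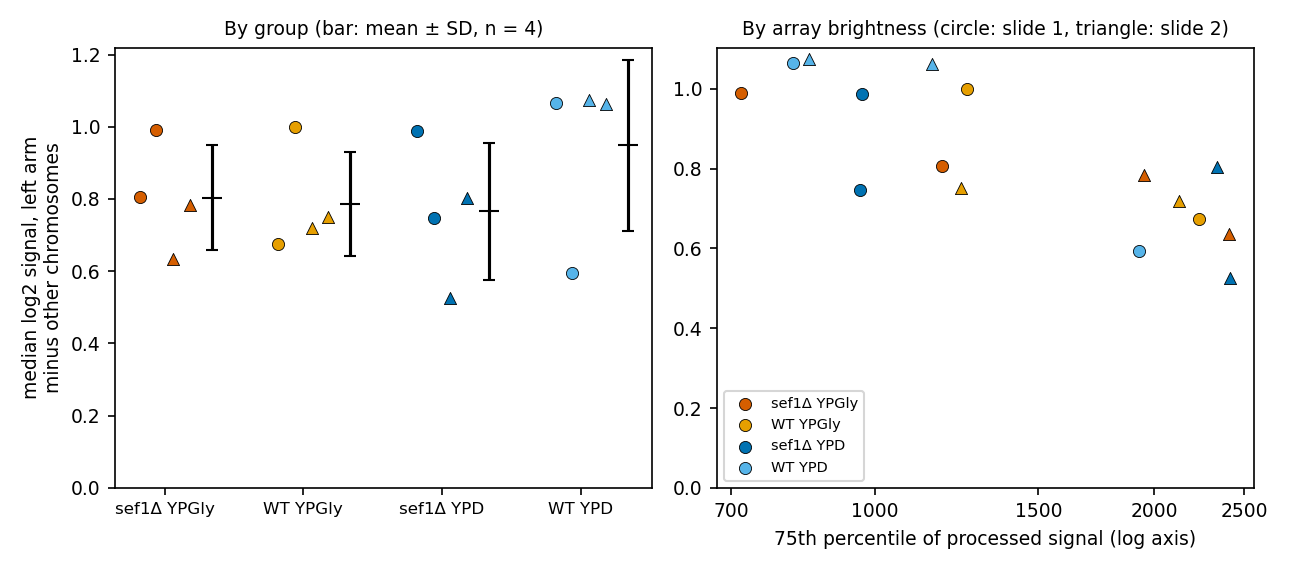
Difference between the median log2 signal of the left arm and of the other chromosomes on each of the 16 arrays (y axis), by group on the left with mean ± SD (n = 4) and against the array's 75th percentile signal on a log axis on the right. All 16 differences lie between 0.53 and 1.08, and all those of 0.81 or more belong to the 9 dimmer arrays.

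A filter on low signal kept 249 of the 285 left-arm genes (87.4%), beside 79.3% of the genes of other chromosomes and 4255 genes in all. A gene passed when all arrays of any 1 group gave it a processed signal of 200 or more, so it could pass through its brighter group alone. A gene was called when limma's Benjamini-Hochberg adjusted p over all 4255 genes was at most 0.05 and the change at least 1.5-fold. Of the 249, 247 were well above background on all 16 arrays. The other 36 genes were not tested. They include STE3, a pheromone receptor gene that in Saccharomyces cerevisiae is used by α cells, at -2.63, -1.97, -2.62 and -2.68 in sef1Δ in YPGly, -3.74, -2.66, -3.56 and -3.31 in WT in YPGly, -2.37, -1.42, -2.71 and -2.58 in sef1Δ in YPD and -2.17, -1.50, -1.90 and -2.49 in WT in YPD. They also include the 5 dimmest genes of the arm (MUC1, SAKL0C00110g, SPS2, SAKL0C00374g and SAKL0C06138g), 2 of which, MUC1 and SAKL0C00110g, were well above background on no array.

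Deletion of SEF1 changed no left-arm gene detectably in YPD. By limma 0 of the 249 genes were called, beside 0.0705% of all genes tested, with a smallest adjusted p of 0.999. At an unadjusted limma p under 0.05 there were 12 left-arm genes (4.82%), beside 2.66% of all genes. The methods' t-test without correction called 2 genes (0.803%), both lower, beside 0.4% of all genes. Still, 187 of the 249 changes (75.1%) were below 0, beside 47.6% of those of all genes. The median was -0.14 on the left arm and 0.02 on the other chromosomes. The groups were apart for 2.01% of left-arm genes and 1.90% of all genes.

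The downward shift ran on past the chosen limit of locus number 7000. The blocks of 1000 locus numbers below it had medians of -0.22 to -0.07 in sef1Δ over WT, all below 0, as had the next 4 blocks. The 3 blocks from 11000 to 13999 had 0.06, 0.03 and -0.00301. The shift relative to the other chromosomes was -0.17 over all arrays, 0.06 within slide 1, which holds the bright replicate 2 of WT, and -0.38 within slide 2. Leaving out replicate 3 of sef1Δ gave -0.08, and leaving out the bright WT array gave -0.25. Scaling to spike-in controls moved the median change of all genes in this comparison to 0.38, from 0.01 with the 75th percentile, and the left arm then stood at 0.23 and the other chromosomes at 0.39.

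In YPGly 1 left-arm gene rose in sef1Δ and 0 fell in the unpaired fit, beside 1.22% of all genes called (0.729% higher). With the replicate number as a block, 8 rose and 5 fell, beside 5.26% of all genes called. The gene called in the unpaired fit was SAKL0C00594g, which has no ortholog symbol here. Its level was 0.10, 0.31, 0.52 and 0.35 in sef1Δ and -0.78, -0.89, -0.50 and -0.42 in WT. Every sef1Δ array was above every WT array, at a log2 change of 0.97 (SE 0.17, limma adjusted p 0.0272). In YPD its levels overlapped, at 0.72, 0.25, 0.14 and 1.17 in sef1Δ and 0.77, -0.03, 0.09 and 1.40 in WT. The call lay near the threshold. It was lost on leaving out any of 6 single arrays, replicate 1, 3 or 4 of sef1Δ or replicate 1, 2 or 3 of WT. Over the 8 such fits the limma adjusted p was 0.0258 to 0.104 and the log2 change 0.89 to 1.04. It was also lost with spike-in scaling (adjusted p 0.164).

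Over the whole arm, 155 of 249 changes in YPGly were above 0, beside 2319 of the 4255 of all genes. The median was 0.09, beside 0.03 on the other chromosomes. The shift between these medians was 0.06, which became 0.01 on leaving out replicate 2 of sef1Δ. Leaving out a WT array gave 0.03 for replicate 1 and 0.10 for replicate 2. The groups were apart for 9.64% of left-arm genes and 9.54% of all genes. An unadjusted limma p under 0.05 was found for 37 left-arm genes (14.9%), beside 12.3% of all genes. The methods' t-test without correction called 13 genes (5.22%), 11 higher and 2 lower, beside 5.69% of all genes. Treating the replicate number as a block gave 8 higher and 5 lower, beside 5.26% of all genes called in that fit (3.15% higher and 2.12% lower). The 8 were SAKL0C00594g, OYE3, PEP1, DCG1, FOL1, SAKL0C00946g, SAKL0C03388g and SAKL0C03498g, and the 5 were CHA1, YJL133C-A, TFC4, OYE2 and YKR051W. Of these DCG1, FOL1, OYE2, SAKL0C00946g, SAKL0C03388g and SAKL0C03498g were named after their values were seen.

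CHA1, which encodes the enzyme that breaks down serine and threonine, had the largest strain difference of the arm on glycerol. Its level was -0.14, -0.24, -0.50 and -0.13 in sef1Δ and 1.51, 2.94, 2.42 and 0.17 in WT, so each mutant array was below each WT array. The log2 change of -2.01 (SE 0.50, limma adjusted p 0.0950) was not called, was called with the block (adjusted p 0.0289), and was called without replicate 4 of WT (adjusted p 0.00883). OYE3, an NADPH oxidoreductase of the old yellow enzyme family, lay at -0.44, 0.38, -0.05 and -0.46 in sef1Δ and -1.24, -0.85, -1.56 and -1.14 in WT, a log2 change of 1.06 (SE 0.23, adjusted p 0.0685, or 0.0117 with the block). PEP1, a sorting receptor for vacuolar enzymes, had a log2 change of 1.22 (SE 0.34, adjusted p 0.132, or 0.00218 with the block), with overlapping groups. ADH6, an NADPH-dependent alcohol dehydrogenase, lay at -2.14, -1.81, -1.49 and -2.28 in sef1Δ and 0.32, 0.94, 0.43 and -3.07 in WT. Replicate 4 of WT set its value, since the log2 change of -1.58 (adjusted p 0.434) was -2.49 without it (adjusted p 0.00328). YKR051W was likewise not called (-0.81, SE 0.33, adjusted p 0.345) and was called without replicate 2 of sef1Δ (adjusted p 0.0495).

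The difference between the sef1Δ effects in the 2 media (YPGly minus YPD) was called for 0 of the 249 genes, beside 0.658% of all genes (0.4% higher and 0.259% lower). The smallest limma adjusted p was 0.0508. At an unadjusted p under 0.05 there were 42 left-arm genes (16.9%), beside 9.57% of all genes. The median of this difference was 0.21 on the left arm and 0.01 on the other chromosomes. It was above 0 for 176 of 249 left-arm genes, beside 2257 of all 4255 genes. On the rest of chromosome C it was 0.15, with 172 of 249 genes above 0, and the 4 blocks after the arm had 0.29, 0.14, 0.22 and 0.22. Relative to the other chromosomes the shift of the left arm was 0.20 over all arrays, -0.01 within slide 1, 0.37 within slide 2 and 0.30 without replicate 2 of WT in YPD. With the replicate number as a block, 3 genes had a more positive effect in YPGly (SAKL0C00946g, OYE3 and PEP1), beside 1.34% of all genes (0.94% higher and 0.4% lower). Spike-in scaling moved the median of all genes here to -0.34, from 0.03, with the left arm at -0.16 and the other chromosomes at -0.36.

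Many genes of the arm are counted as Sef1-bound in the binding data that accompany the arrays. Of its 285 genes, 145 (50.9%) are so counted, beside 502 of 4732 (10.6%) on the other chromosomes and 72 of 296 (24.3%) on the rest of chromosome C, and these 145 make up 20.1% of the 720 listed genes on the array. The share ran from 41.9% to 71.4% over the 7 blocks of the arm, and was 51.2%, 29.5%, 20% and 39.5% in the next 4. The median sef1Δ over WT change was -0.14 in listed and -0.14 in unlisted genes of the arm in YPD, and 0.05 in listed and 0.12 in unlisted genes in YPGly, a difference that was not tested. In the unpaired limma fit none of the 131 listed genes tested was called lower in sef1Δ in either medium, and 1, SAKL0C00594g, was called higher in YPGly. With the block 5 of the 8 genes called higher in YPGly (SAKL0C00594g, OYE3, PEP1, DCG1 and FOL1) and 4 of the 5 called lower (CHA1, YJL133C-A, TFC4 and YKR051W) are listed.

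**Figure D3:**
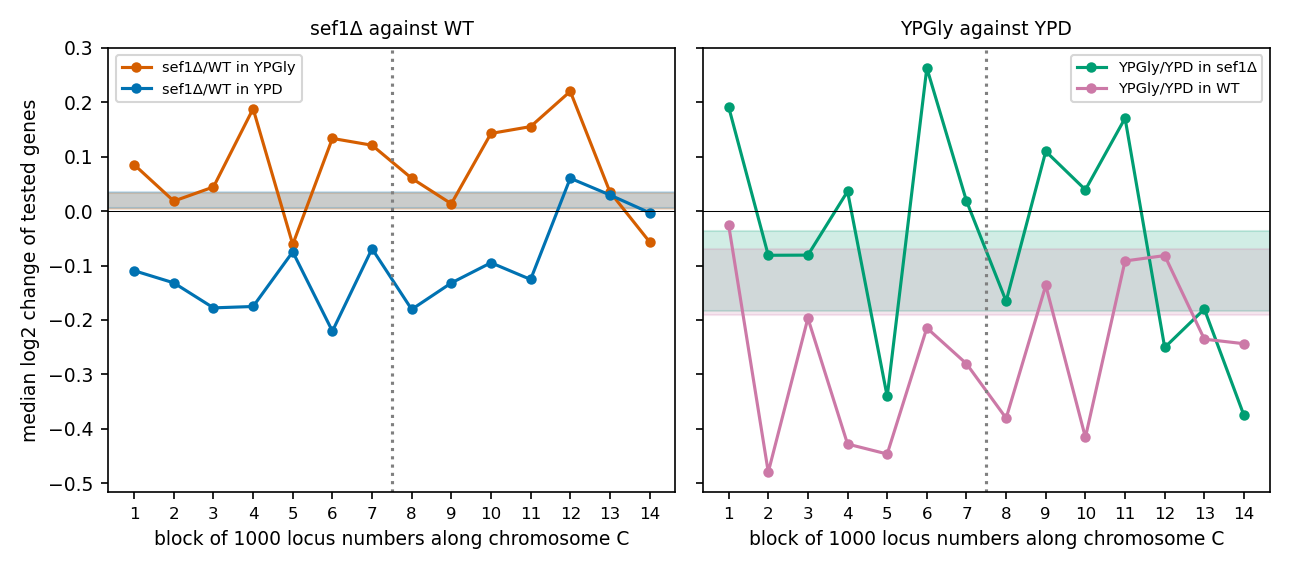
Median log2 change of the tested genes (y axis) in blocks of 1000 locus numbers along chromosome C (x axis, the left arm being blocks 1 to 7, left of the dotted line), for sef1Δ against WT and for YPGly against YPD, with the range of medians of the other 7 chromosomes as bands. In YPD the sef1Δ over WT medians of the left arm lie between -0.22 and -0.07, below the band, and those in YPGly are above 0 in all blocks but the fifth.

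The change of medium moved far more genes. In sef1Δ 41 left-arm genes were called higher and 52 lower in YPGly than in YPD, beside 40.5% of all genes called (18.1% higher and 22.4% lower). In WT 33 were called higher and 72 lower, beside 41.9% of all genes (17.5% higher and 24.3% lower). The groups were apart for 41% of left-arm genes in each strain, and for 42% of all genes in sef1Δ and 45.2% in WT. The median change was -0.05 in sef1Δ and -0.32 in WT on the left arm, and -0.12 in sef1Δ and -0.13 in WT on the other chromosomes. The difference between these medians in WT was -0.19 over all arrays, -0.05 within slide 1 and -0.34 within slide 2. In sef1Δ it was 0.07, and it turned to -0.02 without replicate 3 of YPD and to -0.03 without replicate 2 of YPGly. Without replicate 2 of WT in YPD the median of the left arm in WT was -0.41, with 31 genes higher and 95 lower. With the replicate number as a block, 44 genes were higher and 56 lower in sef1Δ, beside 43.6% of all genes (19% higher and 24.6% lower), and 33 were higher and 77 lower in WT, beside 43.6% of all genes (18.1% higher and 25.5% lower).

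How many genes were called in each direction depended on the scaling. Scaled to spike-in controls, 69 left-arm genes were higher and 24 lower in sef1Δ, beside 1468 of the 4255 genes called in all (24% higher), and 72 were higher and 14 lower in WT, beside 1737 of the 4255 (36.6% higher). That scaling moved the median change of all genes to 0.21 in sef1Δ, from -0.11, and to 0.55 in WT, from -0.14. The left arm then had medians of 0.28 in sef1Δ and 0.37 in WT, and the other chromosomes 0.21 in sef1Δ and 0.56 in WT. Directions of single genes below are those of the 75th percentile scaling. With that scaling 18.1% of all genes were called higher and 22.4% lower in sef1Δ, and 17.5% higher and 24.3% lower in WT. Counts below for functional lists and for genes without a symbol stand beside these shares and were not tested against them. Of the named genes called lower in WT below, RPL39, RPS21B, FAR1, EMG1, NUC1, CIS3, VBA1, TPK3, PLM2, SWE1, POL2 and SAKL0C06336g were not called with spike-in scaling, and of those called lower in sef1Δ, FAR1, NUC1, CIS3, SWE1 and SAKL0C06336g were not.

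Many of the genes called in 1 strain were called in the other, on the left arm as elsewhere. Of the genes lower in YPGly, 46 were called in both strains, which is 88.5% of those in sef1Δ and 63.9% of those in WT, beside 76.4% in sef1Δ and 72.8% in WT on the other chromosomes. Of the genes higher in YPGly, 23 were called in both, which is 56.1% of those in sef1Δ and 69.7% of those in WT, beside 75.6% in sef1Δ and 74.6% in WT on the other chromosomes. None was called in opposite directions, 129 were called in at least 1 strain and 120 in neither. Both probes of a gene gave like changes, with a correlation across genes of 0.99 in sef1Δ and 0.98 in WT (genes are not independent replicates).

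The largest fall in WT, and the second largest in sef1Δ after the ribosomal protein gene RPS22A, was in SAM2, which encodes S-adenosylmethionine synthetase. Its level was -0.20, 0.83, 0.87 and 0.04 in YPGly against 3.64, 3.75, 3.32 and 3.20 in YPD in sef1Δ, and -0.15, 0.34, 0.38 and -0.47 in YPGly against 3.58, 3.43, 3.67 and 3.76 in YPD in WT. The media did not overlap in either strain. The log2 change was -3.09 in sef1Δ (SE 0.27, limma adjusted p 1.72e-05) and -3.59 in WT (SE 0.21, adjusted p 5.21e-07). Of the other biosynthesis genes, MET2, which makes O-acetylhomoserine for methionine synthesis, moved the other way, by 1.20 in sef1Δ (adjusted p 0.0428) and 1.62 in WT (adjusted p 0.00178). The sef1Δ call of MET2 was lost without replicate 1 of YPGly or any 1 of the 4 YPD replicates (adjusted p up to 0.0971). CHA1 rose in both strains, by 1.71 in sef1Δ (adjusted p 0.000112) and 3.54 in WT (adjusted p 0.000386). Of the 11 biosynthesis genes tested, 3 rose and 6 fell in sef1Δ, and 2 rose and 6 fell in WT.

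The largest rise in sef1Δ, and the second largest in WT after CHA1, was in SAKL0C02508g, which has no symbol here. Its level was 4.72, 5.82, 3.37 and 4.20 in YPGly against 0.87, 1.26, 1.22 and 1.55 in YPD in sef1Δ, and 4.52, 5.28, 4.10 and 4.53 in YPGly against 1.13, 1.28, 1.66 and 0.48 in YPD in WT. The media were well apart in both strains, at log2 changes of 3.30 in sef1Δ (SE 0.43, adjusted p 0.000207) and 3.47 in WT (SE 0.29, adjusted p 9.52e-06). YKL107W (SAKL0C04136g) rose by 2.94 in sef1Δ and 3.16 in WT, and SAKL0C01584g by 2.33 in sef1Δ and 1.41 in WT. Their mean levels over the 16 arrays were low, at -2.15 and -2.69. Both could thus pass the signal filter through YPGly alone, which favours a rise, and the sizes rest on dim spots in YPD. TFS1, an inhibitor of carboxypeptidase Y, rose by 1.78 in sef1Δ and 1.80 in WT, with overlapping media in each strain. Its sef1Δ call was lost without replicate 1 of YPGly or replicate 1 or 3 of YPD (adjusted p up to 0.101). UBP12, a ubiquitin protease, rose by 1.85 in sef1Δ (adjusted p 0.000367), and its change of 0.46 in WT was not called (adjusted p 0.346). With a mean level of -2.37, UBP12 too could pass the filter through YPGly alone. YJL133C-A rose by 2.00 in WT (adjusted p 0.000609), and its change of 0.65 in sef1Δ was not called (adjusted p 0.386). The difference between strains in these 2 genes was part of the comparison of sef1Δ effects, in which no left-arm gene was called.

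**Figure D4:**
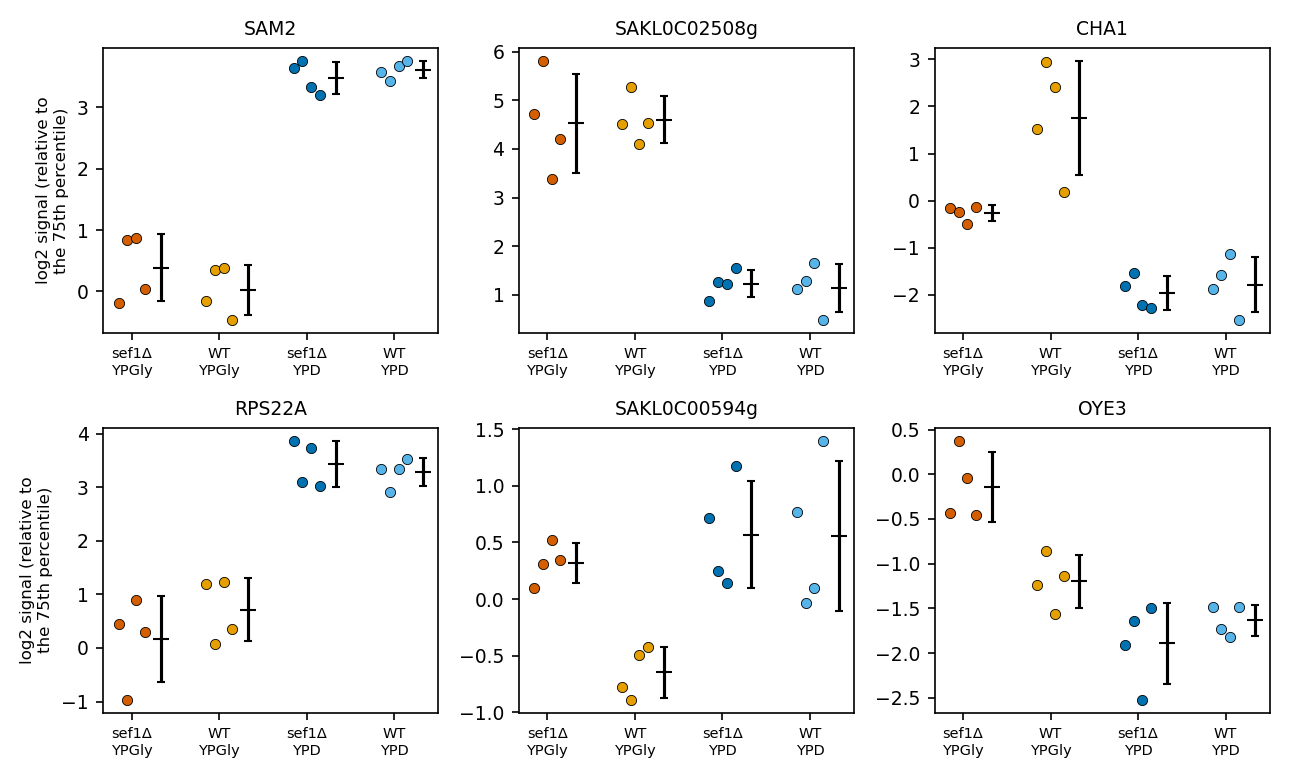
Log2 signal relative to the array's 75th percentile (y axis) of 6 left-arm genes on each of the 16 arrays by group (x axis), with mean ± SD (n = 4). SAM2 and RPS22A are lower and SAKL0C02508g is higher in YPGly in both strains, and SAKL0C00594g and OYE3 are higher in sef1Δ than in WT in YPGly.

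All 6 ribosomal protein genes of the arm fell in YPGly in both strains. RPS22A, a protein of the small ribosomal subunit, lay at 0.46, -0.97, 0.90 and 0.30 in YPGly against 3.87, 3.10, 3.73 and 3.02 in YPD in sef1Δ, and at 1.20, 0.07, 1.24 and 0.35 in YPGly against 3.34, 2.91, 3.34 and 3.53 in YPD in WT. Its log2 change of -3.26 in sef1Δ (SE 0.38) and -2.56 in WT (SE 0.28) was the largest of the 6. RPS14A changed by -2.28 in sef1Δ and -1.84 in WT, RPL37B by -1.94 in sef1Δ and -1.52 in WT, RPL17A by -1.79 in sef1Δ and -1.50 in WT, RPS21B by -1.76 in sef1Δ and -1.39 in WT, and RPL39 by -1.53 in sef1Δ and -1.14 in WT. The median was -1.87 in sef1Δ and -1.51 in WT, beside -1.72 in sef1Δ and -1.32 in WT for the 64 ribosomal protein genes of other chromosomes, all 64 of which were called lower in both strains. With spike-in scaling all 6 were still below 0, and the WT calls of RPL39 and RPS21B were lost (adjusted p 0.273 and 0.0923). The 8 genes of ribosome assembly moved less, with 1 of 8 lower in each strain, EMG1, an rRNA methyltransferase, at -1.33 in sef1Δ and -1.26 in WT. RRP7 and ALB1, 2 further assembly factors, were not called, RRP7 at 0.15 in sef1Δ and 0.36 in WT and ALB1 at -0.72 in sef1Δ and -0.54 in WT.

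Of the 7 genes of respiration, 3 rose in sef1Δ and 2 in WT, and 0 fell. The medians were 0.49 in sef1Δ and 0.39 in WT. QCR7, a subunit of the cytochrome bc1 complex, lay at 3.01, 3.11, 2.98 and 3.08 in YPGly against 1.34, 2.28, 2.33 and 1.39 in YPD in sef1Δ, and at 2.07, 2.43, 2.32 and 2.98 in YPGly against 1.21, 1.78, 2.32 and 0.72 in YPD in WT. The media were apart in sef1Δ and overlapped in WT, at log2 changes of 1.21 in sef1Δ (adjusted p 0.0032) and 0.95 in WT (adjusted p 0.0345). ACN9, an assembly factor of succinate dehydrogenase, rose by 1.28 in sef1Δ and 1.65 in WT. QCR8, another subunit of the bc1 complex, rose by 0.77 in sef1Δ (adjusted p 0.0213), and its change of 0.43 in WT was not called (adjusted p 0.26). COQ6 (ubiquinone synthesis), DIC1 (the dicarboxylate carrier), CCP1 (cytochrome c peroxidase) and MRS3 (an iron carrier) had changes between -0.32 and 0.49 in both strains, with no call. The WT call of QCR7 was lost without replicate 1 or 4 of YPD or replicate 2, 3 or 4 of YPGly (adjusted p up to 0.0896), and the sef1Δ call of QCR8 without replicate 1 of YPD or replicate 1, 3 or 4 of YPGly (adjusted p up to 0.0596).

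Among 9 other tested genes of mitochondrial proteins, 3 rose and 1 fell in sef1Δ, and 4 rose and 1 fell in WT. FMP33, a mitochondrial membrane protein, lay at -1.28, -1.93, -1.28 and -1.11 in YPGly against -4.69, -4.28, -4.16 and -4.09 in YPD in sef1Δ, and at -1.70, -1.27, -0.97 and -1.56 in YPGly against -4.52, -4.32, -4.22 and -4.34 in YPD in WT. Its log2 changes were 2.91 in sef1Δ (SE 0.22) and 2.98 in WT (SE 0.18), and the media did not overlap in either strain. FMP33 passed the signal filter only through WT in YPGly, and its YPD signals were under 200. The filter thus favoured a rise in YPGly, and the size of the change rests on dim spots in YPD. FMP46 rose by 1.77 in sef1Δ and 1.77 in WT, and TAM41, which acts in cardiolipin synthesis, by 1.30 in sef1Δ and 1.23 in WT. NUC1, the mitochondrial nuclease, fell by 0.67 in sef1Δ and 1.23 in WT. In sef1Δ the change of NUC1 was below 1.5-fold without replicate 1 of YPD (adjusted p 0.0475) and was not called without replicate 1 of YPGly (adjusted p 0.0539).

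The mating genes of the arm moved in both directions. In each strain 3 of the 6 tested rose and 2 fell. KAR4, a transcription factor of nuclear fusion, rose by 1.33 in sef1Δ (adjusted p 0.000241) and 0.99 in WT (adjusted p 0.00107). FUS1, which acts in cell fusion, rose by 0.86 in sef1Δ and 1.02 in WT. HMRA2, whose symbol is that of a mating cassette gene of Saccharomyces cerevisiae, rose by 1.04 in sef1Δ and 0.59 in WT. Whether the gene is silent in Lachancea kluyveri was not examined. PRM1, which acts in membrane fusion of mating cells, lay at -2.15, -2.24, -1.97 and -2.12 in YPGly against -0.41, -0.42, -0.77 and -0.65 in YPD in sef1Δ, and at -2.43, -2.51, -1.81 and -1.90 in YPGly against -0.26, -0.32, 0.00 and -0.27 in YPD in WT. It fell by 1.56 in sef1Δ and 1.95 in WT, with the media far apart. FAR1, which halts the cell cycle in response to pheromone, fell by 0.75 in sef1Δ (adjusted p 0.0406) and 1.36 in WT (adjusted p 0.000693). STE50, an adaptor of the pheromone kinase cascade, changed by -0.08 in sef1Δ and -0.45 in WT and was not called. The sef1Δ call of FAR1 was lost without replicate 1, 2 or 4 of YPD or replicate 1, 3 or 4 of YPGly (adjusted p up to 0.105), and the WT call of HMRA2 without replicate 2 or 3 of YPD or replicate 1 or 3 of YPGly (adjusted p up to 0.0738). Both of these calls were also lost with the dimmer probe of the gene or the mean of its probes.

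Cell wall genes included the brightest spots of the arm. PIR3 and PIR1, which encode wall proteins, had mean levels of 5.33 and 4.60, and their probes are marked in their names as open to cross-hybridization, as are those of 2 GNP1 genes. PIR1 changed by 0.57 in sef1Δ, which is under 1.5-fold, and rose by 0.78 in WT (adjusted p 0.00231), and PIR3 changed by 0.55 in sef1Δ and rose by 0.70 in WT. A neighbouring pair of genes with the symbol YJL171C, a wall protein, fell alike, SAKL0C04994g by 1.80 in sef1Δ and 2.58 in WT and SAKL0C05016g by 1.77 in sef1Δ and 2.60 in WT. CIS3, another PIR-type wall protein, fell by 0.67 in sef1Δ and 0.90 in WT. The sef1Δ change of CIS3 was below 1.5-fold without replicate 1 of YPD (adjusted p 0.0460) or replicate 2 of YPGly (adjusted p 0.0191). Of the 9 wall genes tested, 0 rose and 4 fell in sef1Δ, and 2 rose and 4 fell in WT.

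Of 18 transporter genes tested, 1 rose and 2 fell in sef1Δ, and 0 rose and 4 fell in WT. PDR12, a pump that exports weak organic acids, lay at -0.88, 0.67, 0.16 and -0.91 in YPGly against 2.80, 2.64, 2.85 and 2.68 in YPD in sef1Δ, and at -0.69, 2.22, 0.39 and -0.56 in YPGly against 3.02, 2.53, 3.32 and 1.82 in YPD in WT. The media were apart in sef1Δ (log2 change -2.98, adjusted p 8.62e-05) and overlapped in WT, where replicate 2 of YPGly was high (log2 change -2.33, adjusted p 0.00764). KHT2, a hexose transporter gene named from Kluyveromyces lactis, fell by 1.57 in sef1Δ and 1.67 in WT. VBA1, a vacuolar transporter of basic amino acids, fell by 1.35 in WT, and its change of -0.54 in sef1Δ was under 1.5-fold. KHT2 and VBA1 had low mean levels, at -2.34 and -2.50. They could pass the signal filter through YPD alone, which favours a fall in YPGly. GNP1 (SAKL0C01650g), an amino acid permease, changed by 0.07 in sef1Δ and -0.57 in WT, with no call.

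Of 10 tested genes of carbon and redox metabolism, 5 were called higher and 2 lower in sef1Δ, beside 18.1% higher and 22.4% lower of all genes. In WT 3 were called higher and 1 lower, beside 17.5% higher and 24.3% lower of all genes. With so few genes, the list was not tested against these shares. EMI2, a relative of glucokinase, rose by 2.09 in sef1Δ (adjusted p 0.0135) and 1.52 in WT (adjusted p 0.0135). Its levels overlapped between media in sef1Δ, at 4.26, 5.31, 3.54 and 4.09 in YPGly and 1.40, 2.73, 1.04 and 3.69 in YPD. OYE3 rose by 1.75 in sef1Δ (adjusted p 0.000546), and its change of 0.43 in WT was not called (adjusted p 0.071). ADH6 fell by 1.80 in sef1Δ (adjusted p 0.000541) and changed by -0.03 in WT, where replicate 4 of YPGly lay far below the other arrays. GRX2, a glutaredoxin, rose by 0.65 in sef1Δ and 0.91 in WT, and TPK3, a catalytic subunit of protein kinase A, fell by 0.92 in WT, with a change of -0.62 in sef1Δ that was not called. The sef1Δ call of GRX2 was lost with its dimmer probe.

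Cell cycle and DNA genes held 0 higher and 2 lower of 9 in sef1Δ, and 0 higher and 3 lower in WT. SWE1, a kinase that holds back entry into mitosis, fell by 0.93 in sef1Δ and 1.25 in WT. PLM2, a transcription factor of the start of the cell cycle, fell by 1.34 in WT, and its change of -0.85 in sef1Δ was not called (adjusted p 0.0829). POL2, the catalytic subunit of DNA polymerase epsilon, fell by 0.68 in WT (adjusted p 0.0360), a call that was lost without replicate 1, 3 or 4 of YPD or replicate 2, 3 or 4 of YPGly (adjusted p up to 0.107), and its change of -0.25 in sef1Δ was not called. Of 8 transcription genes, 1 rose and 1 fell in each strain. PPR1, an activator of pyrimidine synthesis genes, fell by 1.11 in sef1Δ and 1.77 in WT, and TFC4, a subunit of transcription factor TFIIIC, rose by 0.67 in WT and changed by 0.17 in sef1Δ. The WT call of TFC4 was lost with its dimmer probe. CAF120, a part of the CCR4-NOT complex, changed by 0.56 in sef1Δ and 0.51 in WT, under 1.5-fold in both.

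**Figure D5:**
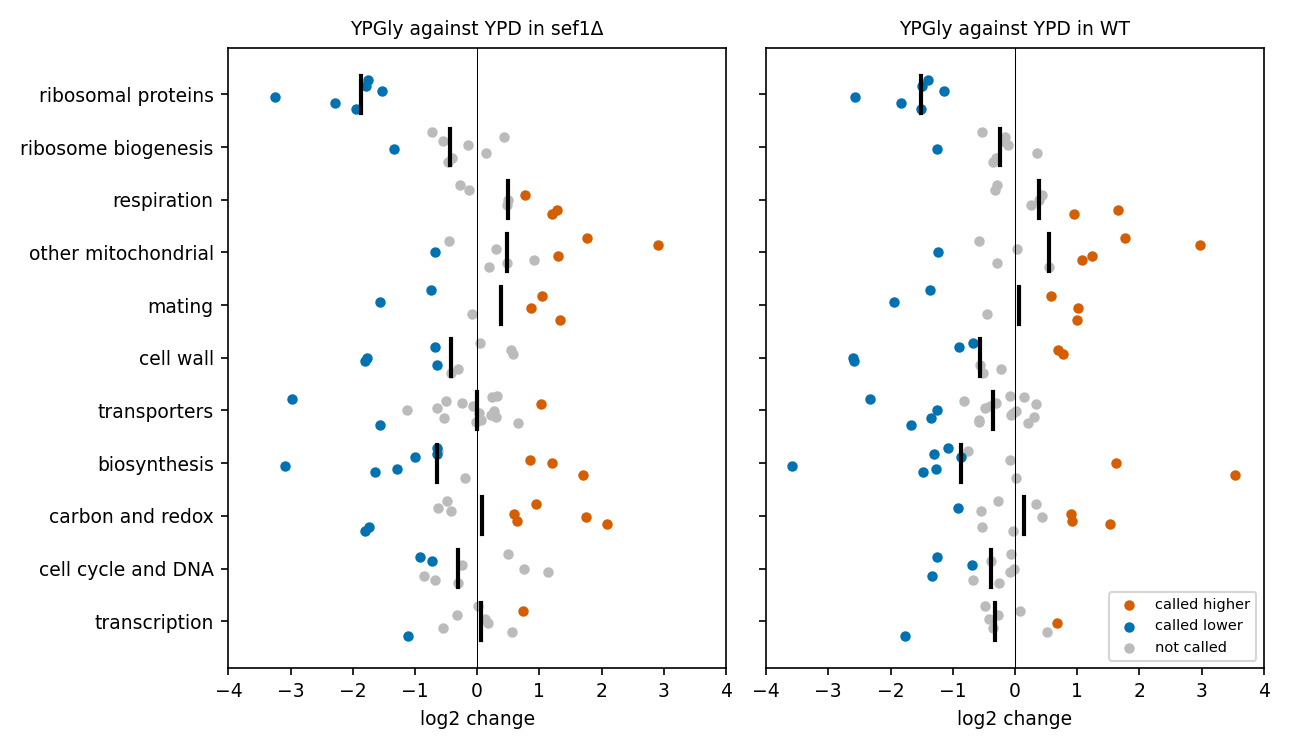
Log2 change of YPGly against YPD (x axis) of each tested left-arm gene in 11 functional lists (y axis), in sef1Δ on the left and WT on the right, with called genes in orange (higher) or blue (lower) and a black bar at the list's median. All 6 ribosomal protein genes are lower in both strains, with medians of -1.87 in sef1Δ and -1.51 in WT, and most lists hold genes on both sides of 0.

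Among left-arm genes without a symbol, the largest fall was in SAKL0C06160g, at -2.06 in sef1Δ and -2.82 in WT. Its mean level was low, at -2.38, so it could pass the signal filter through YPD alone. That favours a fall, and its size rests on dim spots in YPGly. SAKL0C06336g, whose mean level of 3.91 was among the 5 highest of the arm, fell by 0.64 in sef1Δ (adjusted p 0.0356) and 0.91 in WT (adjusted p 0.000532). Its sef1Δ call was lost without replicate 1, 2 or 3 of YPD or replicate 1, 3 or 4 of YPGly (adjusted p up to 0.104). SAKL0C01298g, with a mean level of 4.59, had changes of -0.42 in sef1Δ and -0.36 in WT that were not called. Of the 83 genes without a symbol that were tested, 15 rose and 15 fell in sef1Δ, and 10 rose and 25 fell in WT.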

How the data were processed

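RNA of 16 samples was primed with oligo(dT), labelled with Alexa 555 and hybridized to 1-colour custom Agilent arrays with up to 2 probes per gene. The probes were designed from transcripts of strain CBS3028. The authors' deposited processed signals are intensity values on a linear scale from Agilent Feature Extraction 10.5.1.1, background-subtracted and not scaled between arrays. The deposited series matrix holds log2 values that the authors scaled to the 75th percentile, and it served as an alternative, as did the deposited median intensity for normexp. Here log2 processed signal was set against each array's 75th percentile over gene probes, outlier spots were left out, and the probe with the higher mean over 16 arrays stood for its gene. The study's own list of preferred probes was held in part and not used. Genes were tested with limma 3.58.1 in R 4.3.3 on the 8 arrays of the 2 groups, or on all 16 for the comparison of sef1Δ effects, with Benjamini-Hochberg adjustment. The labels call the replicates biological repeats. The number of arrays limits precision. On data simulated for sef1Δ against WT in YPGly (4255 genes), 97.0% of 4-fold, 67.2% of 2-fold and 20.9% of 1.5-fold changes were called. The simulated errors were independent between genes and arrays, which those of the real arrays were not, so the shares may differ for the real data.

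The members and lists were chosen with earlier results of these data known. Named genes are those called between strains, the 10 largest called rises and falls per medium comparison, the 5 brightest and 5 dimmest, all ribosomal protein, mating and respiration genes, the 3 largest WT changes of every other list, and Sef1-bound genes among the 10 largest strain changes in YPGly. Same-numbered arrays of the strains deviated together from their group means, at correlations of 0.37 to 0.71 in YPD and 0.21 to 0.70 in YPGly. In YPD each was above the largest correlation with an array of another number. In YPGly this held for replicates 2 and 3. Replicates 1 and 4, at 0.208 and 0.285, were below that largest correlation, at 0.277 and 0.324. The numbers were taken to pair the strains in both media, but in YPGly the pairing, and so the block fit, is uncertain. Between media the correlations were 0.37, 0.26, 0.000475 and 0.28 in WT and 0.087, 0.40, 0.31 and 0.21 in sef1Δ for replicates 1 to 4. As 1 pair in each strain was not above 0.1, the numbers were not taken to pair samples between media. Alternatives covered background correction, scaling, probe choice, filters, slides, array weights, the fold threshold, the block, the methods' t-test (unpaired) and leaving out each array. Centring the arm on the other chromosomes was added after seeing the data. Samples were mapped to groups from the labels, and the authors' own comparisons were not used.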

Additional observations from a re-analysis of the deposited data

Results flagged for a closer look

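The difference in level between the left arm and the other chromosomes on replicate 2 of WT in YPD (0.594) was far from the other 3 arrays of that group (1.06 to 1.08), which were dimmer. Among 244 sets of 4 arrays of named genes, 17 (6.97%) held 1 array that stood apart in the same way, where chance gives about 1 in 20. On replicate 2 of WT in YPD these were TFS1 at 2.93, RPS14A at 3.85, PPR1 at -0.72, SAKL0C01298g at 4.68 and POL2 at 0.25. On replicate 2 of sef1Δ in YPGly they were TAM41 at 0.93, PPR1 at -1.01, COQ6 at 0.40, ALB1 at -1.01 and RRP7 at 0.49. On replicate 4 of WT in YPGly they were ADH6 at -3.07, QCR8 at 3.13 and ALB1 at -2.43. On replicate 4 of WT in YPD they were MET2 at -0.29, ALB1 at -1.69 and RRP7 at -0.68, and on replicate 3 of that group PRM1 at -0.000258.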

How the results depend on the processing

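The counts here are of left-arm genes. A setting can move the calls over all genes too, so a count without its share of all genes is not read as a result about the arm. In YPGly the share of all genes called between strains was 1.22% in the main fit, 5.26% with the replicate block and 5.69% with the uncorrected t-test. In YPD the uncorrected methods' t-test called 2 genes, against 0, and the count was 0 with the replicate block. In YPGly the single strain call became 2 with normexp, quantile normalization or the arm centred on other chromosomes, 0 with the dimmer probe, within slide 1, within slide 2 or at 2-fold, 5 with all 16 arrays in 1 fit, 13 with the replicate block or the uncorrected t-test and 28 with array weights, and 0 to 7 on leaving out 1 array (7 without replicate 4 of WT, 5 without replicate 2 of sef1Δ). For YPGly against YPD the count in sef1Δ was 93, and 40 within slide 1, 56 within slide 2 and 53 at 2-fold, with 70 to 107 on leaving out 1 array. In WT 33 genes were higher and 72 lower, and the count in both directions was 44, 60 and 54 under the same settings, with 91 to 126 on leaving out 1 array. The replicate block gave 100 in sef1Δ and 110 in WT, with PLM2 (adjusted p 0.0301) and ALB1 (adjusted p 0.0455) called in sef1Δ too. A like count need not be the same genes, since 65 of the genes called with spike-in scaling in sef1Δ and 47 in WT were also called with the 75th percentile, and the 1 gene called between strains in YPGly was another. The difference of sef1Δ effects, called for 0 genes, was called for 1 with the arm centred, 3 with the replicate block and 17 with array weights, and for 0 to 4 on leaving out 1 array (4 without replicate 4 of WT in YPGly, 1 without replicate 2 of WT in YPD).

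Within slide 1 the shift of the arm was 0.0580 between strains in YPD and -0.00639 for the difference of effects. After the signal filter the level difference was 0.62 in sef1Δ in YPGly, 0.60 in WT in YPGly, 0.59 in sef1Δ in YPD and 0.68 in WT in YPD. Of 89 single-gene calls, 45 held in every alternative run, and over all of them 2217 of 2403 alternatives left the gene called in the same direction. All 6 single-gene results that were not called became called in at least 1 alternative. POL2 in WT turned to 0.00766 with spike-in scaling (adjusted p 0.988), and SAKL0C06336g in sef1Δ to 0.0543 with quantile normalization (adjusted p 0.807). The cause was not tested. The methods' t-test was not run for the difference of effects, which it cannot give.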
